A study of Mus musculus with 2 samples.

Results

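The Wnt ligands, receptors and antagonists were 59 of the 23361 genes with expression values in an RNA-Seq comparison of brown preadipocytes (D0) with brown adipocytes (D7). The rule that chose them reads the gene symbol and uses no expression value. They comprise the Wnt ligands (Wnt1 to Wnt16), the Frizzled receptors (Fzd), the coreceptors Lrp5, Lrp6, Ror1 and Ror2, and the R-spondins with their receptors Lgr4, Lgr5 and Lgr6. They also comprise the secreted antagonists (Sfrp1, Sfrp2, Sfrp4, Sfrp5, Frzb, Wif1 and the Dkk genes), the secretion factors Porcn and Wls, and Axin1, Axin2, Ctnnb1, Lef1 and the Tcf7 genes inside the cell. The 2 libraries, 1 per stage, came from cultures of interscapular brown adipose tissue of newborn C57BL/6 mice, with no genetic difference between the stages in the labels. The labels of both stages give 20% serum for growth and 10% for differentiation. Cells of both stages had been plated for 4 days in medium with 1 nM of the thyroid hormone T3, 10% serum and insulin at 0.1 μM. Cells of D7 had also received indomethacin (0.125 mM), dexamethasone (2 μg/ml) and IBMX (0.5 mM) for 2 days, the usual inducers of adipocyte differentiation, and were returned to the former medium for the rest of the 7 days. The study's methods describe cells immortalized with a retroviral large T antigen and other insulin and dexamethasone concentrations, whereas the labels call the cells primary cultures. Whether cells of several animals were pooled is not given in the sources used here.

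Wnt proteins are secreted, lipid-modified signals. Porcn attaches the lipid and Wls carries the finished ligand to the cell surface, where it binds a Frizzled receptor. With Lrp5 or Lrp6 as coreceptor, the signal disables a complex of Axin, Apc and Gsk3 that otherwise marks beta-catenin (Ctnnb1) for destruction, and beta-catenin then acts on target genes with Tcf and Lef factors. Other Wnt signals, such as those of Wnt5a through Ror2, do not pass through beta-catenin. In preadipocytes the beta-catenin branch is known to hold back Pparg and Cebpa and thereby differentiation, with Wnt10b as the classical ligand.

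Expression is given as FPKM, fragments per kb of transcript and per unit of sequencing depth, as deposited. The comparison is the ratio of FPKM at D7 to that at D0, and a gene was called past 2-fold where the ratio was 2 or more, or 0.5 or less. The fragments behind each value were recovered approximately from the spacing of low FPKM values. Parentheses after a ratio hold its 95% interval by the exact Clopper-Pearson method. It reflects counting error alone. It sets library against library, not stage against stage, since no difference has a replicate check and no p-value can be given. A gene listed at 0 has no ratio, because a count of 0 allows up to 3 fragments.

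Markers of the labelled cell types were read first. All 8 adipocyte markers were past 2-fold higher at D7, with a summed FPKM of 84.9 at D0 and 18468 at D7. Of 8 brown adipocyte markers, 4 were listed at 0 at D0, and all 8 were above an FPKM of 1 at D7. Of the 4 with a ratio, 3 were past 2-fold higher. The exception was Prdm16, with FPKM values of 0.835 (D0) and 1.02 (D7), a ratio of 1.22 (0.965 to 1.53). Of 7 preadipocyte markers, 2 were past 2-fold lower and 2 past 2-fold higher at D7. Markers of other cells differed too. Of 8 macrophage markers, 7 were past 2-fold higher at D7, and their summed FPKM was 144.9 at D0 and 493 at D7. All 5 Schwann cell markers were past 2-fold higher, with sums of 4.16 and 11.1. Of the 6 endothelial markers, 2 (Kdr and Tek) were past 2-fold higher at D7 and 1 (Cdh5) was lower. Their sums were 1.62 and 2.69, with 1 fragment of Pecam1 in each library. The 6 skeletal muscle markers had sums of 51.2 and 4.81, with 45.4 at D0 from Acta1 alone, while Myod1 and Myf5 were listed at 0 in both libraries. The 4 epithelial markers had sums of 0.0915 and 0.0661, with Epcam and Krt14 listed at 0 in both. The part of these cells in the results below was not tested. In bulk RNA, fewer cells of a type and less RNA per cell cannot be told apart.

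Most Wnt genes that were expressed at D0 were still expressed at D7, and some passed 2-fold in each direction. Of the 59 members, 47 were above 0 in both libraries, 7 were listed at 0 in both, 2 were at 0 in the D0 library alone and 3 in the D7 library alone. Past 2-fold, 6 of the 47 were higher at D7, namely Axin2, Fzd4, Sfrp2, Wnt2, Rspo1 and Lgr6, against 18.5% of all 14986 genes above 0 in both libraries. Another 6 were lower, namely Wnt4, Ror2, Fzd6, Wnt16, Wls and Fzd2, against 13.2% of all genes. These shares of 12.8% in each direction are no larger than the background. The interval excluded 1 in 4 of the 6 higher members and in all 6 lower ones, the exceptions being Rspo1 and Lgr6. These made up 8.51% and 12.8% of the 47, against 15.5% higher and 11.5% lower among all genes by the same rule. In the 32 members with an FPKM of at least 1 in a library, 3 were higher and 5 lower, beside 15.6% and 11.9% of all such genes. Their median log2 ratio was -0.14, with -0.028 over the 11967 such genes in all. Fzd2 lay just inside the threshold with a ratio of 0.499. Lgr5 at 0.531 and Frzb at 0.537 lay just outside it.

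**Figure D1:**
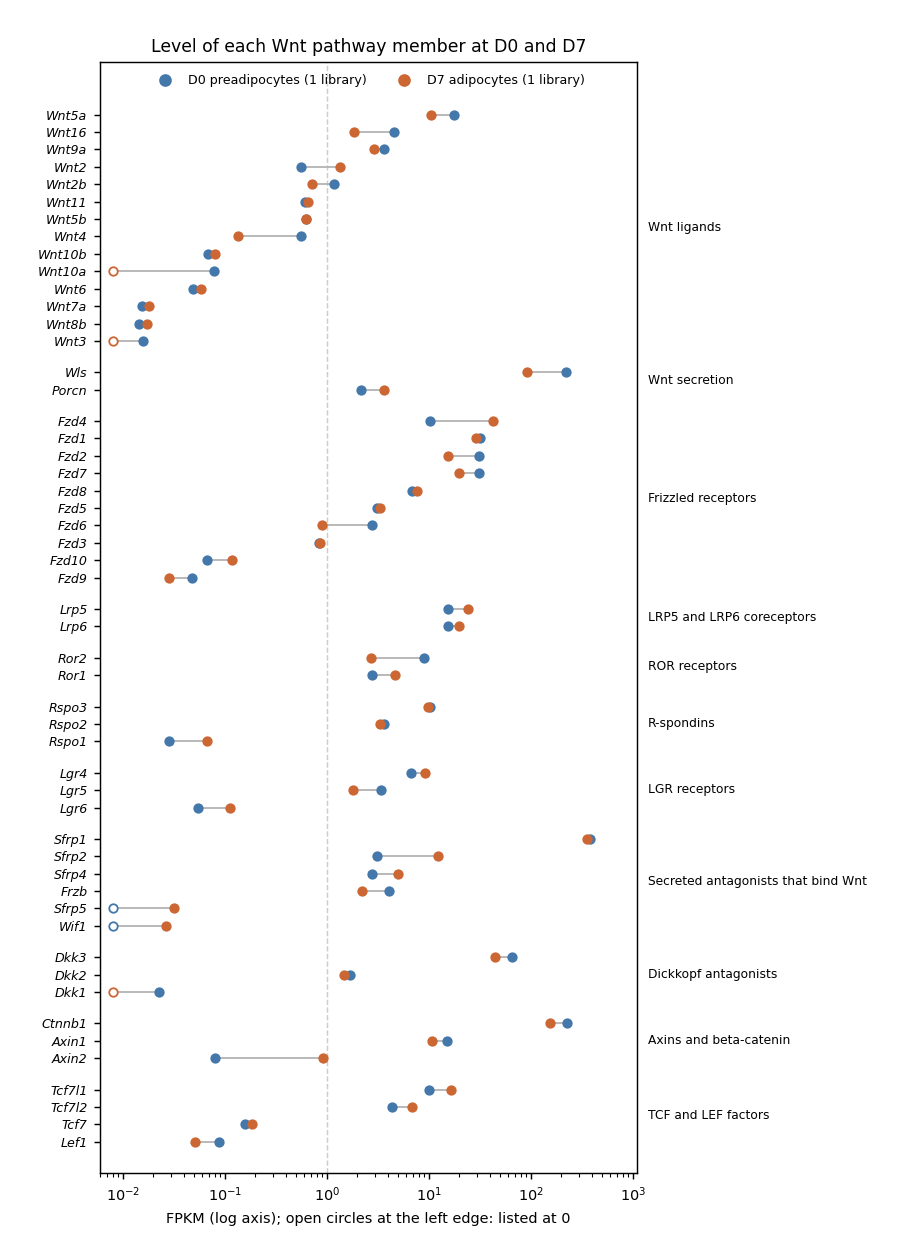
FPKM (log axis) of the 52 members above 0 in at least 1 library, grouped by role, at D0 (blue) and D7 (orange), 1 library each; open circles mark a gene listed at 0. Sfrp1, Ctnnb1 and Wls stand highest, and the longest shifts between colours among genes near or above an FPKM of 1 are those of Axin2, Fzd4, Sfrp2, Wnt4, Ror2 and Fzd6.

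The promoters of members past 2-fold were looked up. The RefSeq promoter table held 40 of the 59 members in 49 windows, and the 250 bases before the start were searched on both strands. The sequences below (RefSeq, GRCm38.p6, 5′ to 3′ on the strand of the gene) are those of 3 members higher at D7 and 2 lower at D7, picked after their values were seen. Capitals mark 2 motifs, CACCC (the KLF motif, read as GGGTG on the other strand) and TTGCNNAA (a C/EBP motif), which do not overlap here.
Axin2, chr11:108920099-108920348, plus strand: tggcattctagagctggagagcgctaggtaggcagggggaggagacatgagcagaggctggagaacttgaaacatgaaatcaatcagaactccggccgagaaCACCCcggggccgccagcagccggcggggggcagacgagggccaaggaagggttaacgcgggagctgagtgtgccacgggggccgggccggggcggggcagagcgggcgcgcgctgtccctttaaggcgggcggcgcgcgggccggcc
Fzd4, chr7:89404116-89404365, plus strand: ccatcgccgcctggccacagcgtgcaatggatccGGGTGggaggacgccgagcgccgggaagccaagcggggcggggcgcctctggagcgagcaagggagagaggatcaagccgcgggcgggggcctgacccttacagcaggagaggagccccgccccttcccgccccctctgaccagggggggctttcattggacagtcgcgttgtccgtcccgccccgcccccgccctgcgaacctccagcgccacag
Sfrp2, chr3:83766071-83766320, plus strand: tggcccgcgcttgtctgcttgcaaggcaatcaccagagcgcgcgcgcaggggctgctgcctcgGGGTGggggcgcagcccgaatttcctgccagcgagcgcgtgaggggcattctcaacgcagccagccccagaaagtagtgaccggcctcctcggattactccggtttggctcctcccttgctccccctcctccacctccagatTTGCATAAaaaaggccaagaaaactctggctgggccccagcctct
Wls, chr3:159839400-159839649, plus strand: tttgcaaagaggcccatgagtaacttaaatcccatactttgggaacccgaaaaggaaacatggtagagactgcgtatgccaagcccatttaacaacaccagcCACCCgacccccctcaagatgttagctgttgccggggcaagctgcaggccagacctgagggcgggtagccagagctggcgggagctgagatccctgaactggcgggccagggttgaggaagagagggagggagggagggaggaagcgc
Ror2, chr13:53286125-53286374, minus strand: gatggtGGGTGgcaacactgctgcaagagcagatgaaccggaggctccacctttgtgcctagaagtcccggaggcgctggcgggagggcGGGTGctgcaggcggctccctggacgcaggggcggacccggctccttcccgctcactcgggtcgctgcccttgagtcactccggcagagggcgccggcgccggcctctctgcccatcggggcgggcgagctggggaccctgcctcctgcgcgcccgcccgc
Each of the 5 holds CACCC at least once, and Ror2 holds it at 2 places. The windows of Wnt4 and Wnt16, also past 2-fold lower and not printed, hold no CACCC, so the 5 do not stand for all members past 2-fold. Only Sfrp2, among these 5, holds TTGCNNAA, starting 45 bases before the start site. CACCC was in 37 of the 49 member windows (75.5%) and in 52.0% of all 32851 windows. The member windows were richer in G and C, with a median of 66.8% against 52.4%. TTGCNNAA was in 4 of the 49 windows (8.16%), those of Fzd1, Lgr4, Sfrp2 and Wnt3, beside 9.56% of all. The Tcf and Lef motif, searched as CTTTGAA and CTTTGAT, was in 3 windows (6.12%), one each of Dkk1, Wnt11 and Wnt5b, beside 7.48% of all. The direct repeat bound by PPAR with RXR, searched as 2 copies of AGGTCA with any 1 base between them, was in 0 of the member windows and 0.0335% of all. A match is a description of letters and does not show that a factor binds.

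Of the 19 Wnt ligand genes, Wnt5a held most of the ligand RNA at both stages. Their summed FPKM was 29.7 (D0) and 18.9 (D7), a ratio of 0.636. The 5 ligands that reached an FPKM of 1 in a library made up 93.2% of the sum at D0 and 91.6% at D7. Wnt5a (ENSMUSG00000021994.15, chromosome 14, 28504750 to 28527448), which acts mostly outside the beta-catenin branch, had FPKM values of 17.8 (D0) and 10.5 (D7), from about 2607 fragments,, from about 1306. Its share of the ligand sum was 59.8% (D0) and 55.4% (D7). The ratio of 0.589 (0.551 to 0.630) excludes 1 without reaching 0.5.

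Wnt16 and Wnt4 were the ligands past 2-fold lower. Wnt16 (ENSMUSG00000029671.15, chromosome 6, 22288227 to 22298522) was the next ligand by level at D0, with an FPKM of 4.54 from about 145 fragments. At D7 its FPKM was 1.84 from about 50 fragments, a ratio of 0.406 (0.288 to 0.563). Wnt4 (ENSMUSG00000036856.4, chromosome 4, 137277489 to 137299726), best known from kidney and gonad development, had FPKM values of 0.562 (D0) and 0.135 (D7), from about 48 and 10 fragments. Its ratio of 0.241 (0.110 to 0.490) was the lowest of the 47 members.

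Wnt2 (ENSMUSG00000010797.6, chromosome 6, 17988940 to 18030585) was the ligand past 2-fold higher. Its FPKM was 0.553 in the D0 library (about 25 fragments) and 1.36 at D7, from about 51, a ratio of 2.46 (1.46 to 4.04). Its close relative Wnt2b went the other way, with an FPKM of 1.18 (D0) and 0.710 (D7), for a ratio of 0.602 (0.403 to 0.888). Wnt9a had an FPKM of 3.63 and 2.93, with a ratio of 0.807 (0.658 to 0.985), whose interval ended just under 1. Wnt11 and Wnt5b stayed near an FPKM of 0.6 at both stages, with ratios of 1.07 (0.541 to 2.08) and 0.997 (0.569 to 1.79). The annotated span of Wnt5b holds Fbxl14 on the opposite strand, and the deposited table gives both the same locus, so its value is uncertain.

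The ligands best known for the beta-catenin branch were barely detected. Wnt10b had 3 fragments in each library, an FPKM of 0.0682 (D0) and 0.0803 (D7). Wnt10a had about 4 fragments at D0 and a listed 0 at D7, where 3 fragments would be an FPKM of 0.0718. Wnt3 had 1 fragment at D0 and a listed 0 at D7. Wnt6, Wnt7a and Wnt8b had 2, 1 and 1 fragments in each library. The ratios of 1.18 that FPKM gives for Wnt6, Wnt7a, Wnt8b, Wnt10b and also Tcf7 are the worth of a fragment at D7 over D0, which is 1.18, and stand for equal fragments at both stages. Wnt1, Wnt3a, Wnt7b, Wnt8a and Wnt9b were listed at 0 in both libraries, with limits of 3 fragments between an FPKM of 0.0322 and 0.105.

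Several ligand genes lie side by side. Of the 19 ligand genes, 8 lie in 4 pairs of neighbours less than 100 kb apart. Wnt6 and Wnt10a are 6.2 kb apart on chromosome 1, Wnt10b and Wnt1 are 11.7 kb apart on chromosome 15, and Wnt9b and Wnt3 are 24.3 kb apart on chromosome 11. None of these 6 reached an FPKM of 0.1 in a library. Wnt3a and Wnt9a are 16.2 kb apart on chromosome 11. Wnt3a was listed at 0 in both libraries, whereas Wnt9a was the third ligand by level at D0 and the next after Wnt5a at D7.

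The secretion factors Wls and Porcn differed in opposite directions. Wls (ENSMUSG00000028173.10, chromosome 3, 159839672 to 159938664), the carrier of Wnt proteins to the cell surface, had FPKM values of 223.9 (D0) and 91.3 (D7), from about 16252 and 5629 fragments. It ranked 331 of the 23361 genes (D0) and 954 (D7). Its ratio of 0.407 (0.395 to 0.420) is a 2.45-fold lower level. Among the members past 2-fold lower, it had the most fragments. Porcn, the acyltransferase on the X chromosome, had an FPKM of 2.18 and 3.64, a ratio of 1.67 (1.24 to 2.25). Wls RNA was 103 times that of Porcn by FPKM at D0 and 25.1 times at D7.

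The Frizzled receptors kept their sum while its make-up differed. Over all 10 genes the summed FPKM was 117.9 (D0) and 119.6 (D7), a ratio of 1.01. Without Fzd4 it was 107.6 (D0) and 77.2 (D7), for a ratio of 0.717. Fzd4 (ENSMUSG00000049791.4, chromosome 7, 89404355 to 89413134), which also serves as the receptor of Norrin in vessels of the retina, had FPKM values of 10.3 (D0) and 42.4 (D7), from about 1444 and 5063 fragments. Its ratio of 4.12 (3.89 to 4.37) took it from 8.72% of the Frizzled sum at D0 to 35.4% at D7. It stood below Fzd1, Fzd2 and Fzd7 at D0 and above them at D7. Ndp, the gene of Norrin, was listed at 0 in both libraries.

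**Figure D2:**
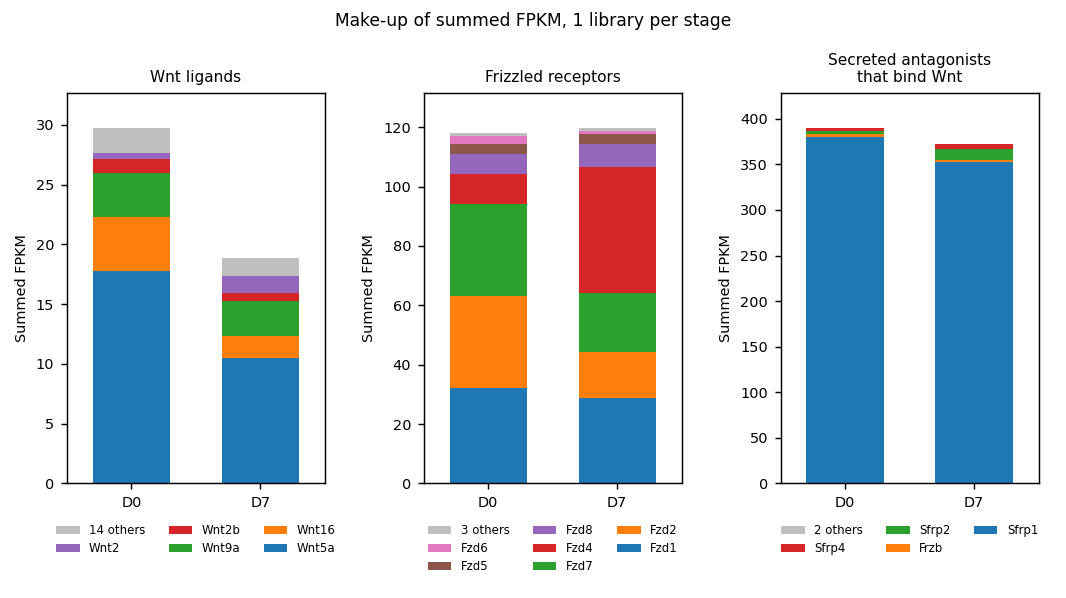
Stacked bars of FPKM, summed over the Wnt ligands, the Frizzled receptors and the secreted antagonists that bind Wnt, at D0 and D7 (1 library each), with the genes below an FPKM of 1 in both libraries in grey. The Frizzled bars are nearly equal in height (117.9 and 119.6) while Fzd4, in red, takes 10.3 at D0 and 42.4 at D7, and Sfrp1 fills nearly the whole antagonist bar at both stages.

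Fzd1, Fzd2 and Fzd7, each a gene with a single exon, together made up 79.7% of the Frizzled sum at D0 and 53.7% at D7. At D0 they were close in level, with FPKM of 32.0, 31.1 and 30.8 in that order. At D7 they were spread out. Fzd1 had an FPKM of 28.8 and a ratio of 0.901 (0.851 to 0.952). Fzd7 had 19.9 and a ratio of 0.645 (0.607 to 0.684). Fzd2 (ENSMUSG00000050288.6, chromosome 11, 102604396 to 102608058) had 15.5 and a ratio of 0.499 (0.463 to 0.538), whose interval includes 0.5. None of the intervals of the 3 ratios overlaps another.

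Fzd6 (ENSMUSG00000022297.15, chromosome 15, 39006034 to 39038188), a receptor known from the orientation of hair follicles, was past 2-fold lower. Its FPKM was 2.78 in D0 and 0.899 in D7, from about 233 and 64 fragments, a ratio of 0.323 (0.241 to 0.427). An annotated transcript of the opposite strand, Gm26704, overlaps it. For Fzd8, Fzd5 and Fzd3 the interval included 1, with ratios of 1.14 (0.994 to 1.30), 1.06 (0.929 to 1.22) and 1.03 (0.847 to 1.25). Fzd8 had an FPKM of 6.81 and 7.73, Fzd5 of 3.13 and 3.33, and Fzd3 of 0.838 and 0.863. Fzd10, with 4 and 6 fragments, and Fzd9, with 2 and 1, were near the limit of detection.

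Both beta-catenin branch coreceptors were higher at D7 and both ROR receptors differed, in opposite directions. Lrp5 had FPKM values of 15.5 (D0) and 24.2 (D7), a ratio of 1.56 (1.46 to 1.66). Lrp6 had 15.4 and 20.0, a ratio of 1.30 (1.24 to 1.36). They were at nearly the same level at D0, and Lrp5 was the higher of the pair at D7. Neither reached 2-fold.

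Ror2 (ENSMUSG00000021464.14, chromosome 13, 53109312 to 53286124), a receptor tyrosine kinase of Wnt5a, had FPKM values of 8.99 (D0) and 2.73 (D7), from about 735 and 190 fragments. Its ratio of 0.304 (0.258 to 0.357) is a 3.29-fold lower level. Ror1 had an FPKM of 2.76 and 4.66, a ratio of 1.69 (1.47 to 1.95). Ror2 RNA was thus 3.26 times that of Ror1 at D0 and 0.586 times at D7, and the order of the pair turned. Their sum was 11.7 at D0 and 7.39 at D7.

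The R-spondins, which raise Frizzled levels at the cell surface through Lgr4, Lgr5 or Lgr6, showed no difference beyond counting error in the FPKM values without rescaling. Rspo3 had FPKM values of 10.2 (D0) and 9.77 (D7), a ratio of 0.959 (0.851 to 1.08). Rspo2 had 3.65 and 3.35, a ratio of 0.916 (0.754 to 1.11). Rspo1 passed 2-fold on 1 fragment at D0 and 2 at D7, with a ratio of 2.36 (0.122 to 139), so no difference was detectable at this depth. Rspo4 was listed at 0 in both libraries.

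Their receptors differed from each other. Lgr4, the widely expressed one, had FPKM values of 6.68 (D0) and 9.09 (D7), a ratio of 1.36 (1.23 to 1.51). Lgr5, a stem cell marker of the intestine and itself a Wnt target, had 3.39 and 1.80, from about 336 and 152 fragments, a ratio of 0.531 (0.436 to 0.646). The deposited table gives Lgr5 the same locus as A930009A15Rik on the opposite strand, so its value is uncertain. Lgr4 held 66.0% of the summed FPKM of the 3 receptors at D0 and 82.6% at D7. Lgr6 passed 2-fold on about 8 and 13 fragments, with a ratio of 2.06 (0.734 to 5.32) whose interval includes 1.

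Sfrp1 was the most abundant of the 59 members at both stages. This secreted protein carries a domain like that of the Frizzled receptors and binds Wnt outside the cell. Sfrp1 (ENSMUSG00000031548.7, chromosome 8, 23411502 to 23449632) had FPKM values of 379.6 (D0) and 353 (D7), from about 34177 and 26998 fragments, and ranked 205 and 252 of all genes. Its ratio of 0.929 (0.914 to 0.944) is close to 1. It made up 97.4% of the summed FPKM of Sfrp1, Sfrp2, Sfrp4, Sfrp5, Frzb and Wif1 at D0 and 94.8% at D7. By FPKM, Sfrp1 RNA was 12.8 times that of all Wnt ligands together at D0 and 18.7 times at D7.

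Below Sfrp1, the make-up of the antagonists shifted. The other 5 genes of the group had a summed FPKM of 10.0152 (D0) and 19.5 (D7), for a ratio of 1.95. Sfrp2 (ENSMUSG00000027996.13, chromosome 3, 83766321 to 83774316) had FPKM values of 3.12 (D0) and 12.2 (D7), from about 122 and 405 fragments, a ratio of 3.91 (3.18 to 4.82). Gm26771 overlaps it on the opposite strand. Sfrp4 had 2.80 and 5.04, a ratio of 1.80 (1.39 to 2.36). Frzb, also known as Sfrp3, had 4.09 and 2.20, a ratio of 0.537 (0.428 to 0.668), and was the highest of the 5 at D0 and the third at D7. Sfrp5, known as an adipokine of mature white fat, had 1 fragment at D7 and was listed at 0 at D0, as was Wif1. Neither difference was detectable at this depth.

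Of the Dickkopf genes, Dkk3 held 97.5% of the summed FPKM at D0 and 96.8% at D7. Dkk3 is a distant member of the family that, unlike Dkk1, is not known as a plain blocker of Lrp5 and Lrp6. Its FPKM was 66.1 (D0) and 44.7 (D7), a ratio of 0.676 (0.643 to 0.709). Dkk2 had 1.68 and 1.46, a ratio of 0.871 (0.659 to 1.14). Dkk1, the classical blocker of the coreceptors, had 1 fragment at D0 and a listed 0 at D7. Dkk4 was listed at 0 in both libraries.

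Inside the cell, Axin2 gave the highest ratio of the 47 members. Axin2 (ENSMUSG00000000142.15, chromosome 11, 108920349 to 108950783), a scaffold of the complex that destroys beta-catenin, is itself switched on by beta-catenin and is often read as a reporter of that branch. Its FPKM was 0.0799 in the D0 library (about 7 fragments) and 0.927 at D7, from about 69. The ratio of 11.6 (5.33 to 29.9) rests on a low level at D0, and Gm11670 overlaps the gene on the opposite strand. At D7 Axin2 still ranked only 11697 of 23361 genes. Its relative Axin1 had FPKM values of 14.9 (D0) and 10.8 (D7), a ratio of 0.724 (0.648 to 0.806). Axin1 RNA thus stayed above that of Axin2 at both stages.

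Ctnnb1 (ENSMUSG00000006932.17, chromosome 9, 120929216 to 120960507), the gene of beta-catenin, was among the most abundant transcripts, and its protein also works in cell contacts. Its FPKM was 226.9 at D0 and 154.1 at D7, and its rank 330 and 554 of all genes. The ratio was 0.679 (0.662 to 0.696). FPKM measures RNA and says nothing of the amount of beta-catenin protein, which the pathway controls by its destruction.

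Of the 4 factors that work with beta-catenin on DNA, Tcf7l1 and Tcf7l2 were expressed and were higher at D7. Tcf7l1, mostly a repressor, had FPKM values of 10.0226 (D0) and 16.7 (D7), a ratio of 1.66 (1.45 to 1.90). Several annotated transcripts overlap it on both strands. It is listed at the same locus as Gm15401 on the opposite strand, so its value is uncertain. Tcf7l2, known for its link to type 2 diabetes, had 4.39 and 6.84, a ratio of 1.56 (1.34 to 1.80). Tcf7 had about 8 fragments in each library. Lef1, a factor of lymphocytes and hair follicles and a Wnt target, had about 6 and 3 fragments, with a ratio of 0.590 (0.0951 to 2.75).

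**Figure D3:**
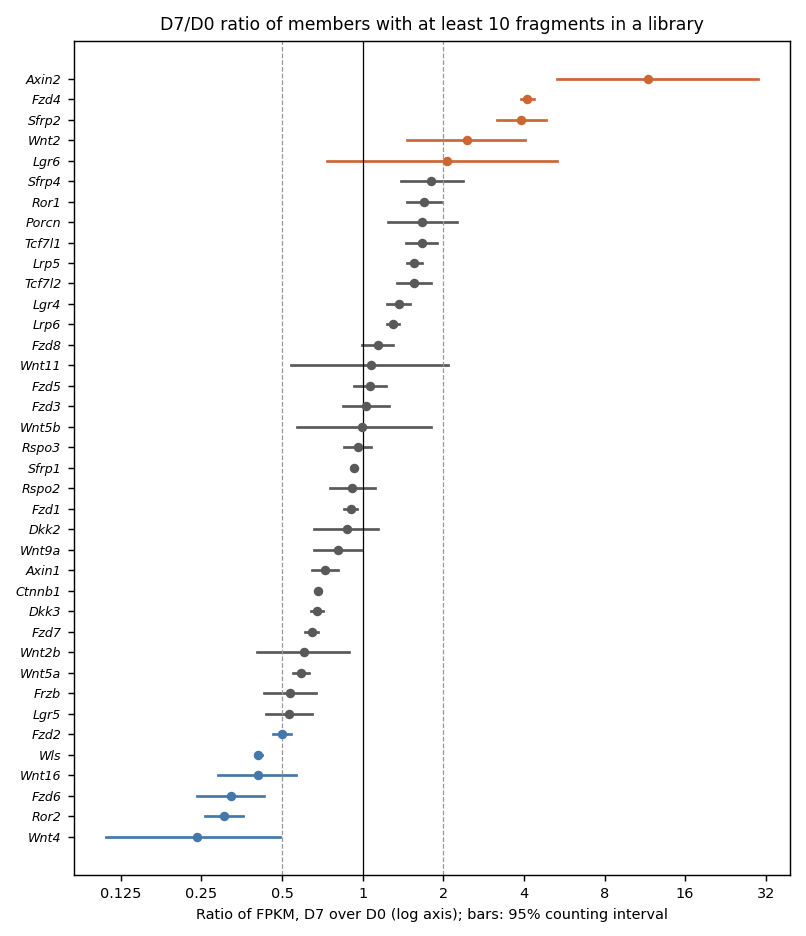
Ratio of FPKM at D7 to that at D0 (log axis) for the 38 members above 0 in both libraries with at least 10 fragments in a library; bars are 95% counting intervals, the solid line marks 1 and the dashed lines 0.5 and 2. Axin2 (11.6), Fzd4 (4.12) and Sfrp2 (3.91) stand apart on the right, Wnt4 (0.241), Ror2 (0.304) and Fzd6 (0.323) on the left, and the bars of Axin2, Wnt4 and Lgr6 are wide.

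Other genes of the pathway were read from 2 lists. Of 42 components of signal transduction, 40 were above 0 in both libraries, with 2 past 2-fold higher and 4 lower at D7, fewer in each direction than the 18.5% and 13.2% of all genes, and a median log2 ratio of -0.11. The median over all genes above 0 in both libraries was 0.015. Ptk7, a Wnt coreceptor of cell polarity, had FPKM values of 122.4 (D0) and 18.9 (D7), a ratio of 0.155 (0.146 to 0.163). Vangl2, a core polarity protein of the membrane, had 4.52 and 1.00, a ratio of 0.221 (0.177 to 0.274). Apc2, a relative of Apc, had 1.54 and 0.739, a ratio of 0.478 (0.383 to 0.593). Dvl2, which passes the signal on from Frizzled, had 14.3 and 7.14, and its ratio of 0.499 (0.439 to 0.564) lay at the threshold. Gpc3, a heparan sulfate proteoglycan that binds Wnt, was higher, with 13.2 and 27.5 and a ratio of 2.08 (1.88 to 2.31).

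Other components did not reach 2-fold. Gsk3b, a kinase of the beta-catenin destruction complex, had FPKM values of 15.9 (D0) and 15.6 (D7), a ratio of 0.983 (0.929 to 1.04). Apc, a scaffold of that complex, had 6.86 and 7.74, a ratio of 1.13 (1.06 to 1.20). The ubiquitin ligase Znrf3, which removes Frizzled receptors and is a Wnt target, had 1.01 and 1.17, a ratio of 1.16 (0.903 to 1.48). Its partner Rnf43 had about 2 fragments at D0 and a listed 0 at D7. These values stand outside the rule for naming genes and were chosen after they were seen.

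The second list held 20 target genes, feedback inhibitors and extracellular modulators, of which 15 were above 0 in both libraries, 4 past 2-fold higher and 3 lower, beside 18.5% and 13.2% of all genes. The interval included 1 for Notum and Tnfrsf19 among the 4. The median log2 ratio of the list was -0.58. Apcdd1, a Wnt target that inhibits the pathway at the membrane, had FPKM values of 1.64 (D0) and 13.9 (D7), a ratio of 8.49 (6.46 to 11.3). Nkd1, a feedback inhibitor that binds Dvl, had 1.26 and 3.05, a ratio of 2.42 (1.84 to 3.23). Wisp1 had 76.3 and 9.16, the lowest ratio of the list at 0.120 (0.112 to 0.129). Cd44, a hyaluronan receptor used as a Wnt target but controlled by many other signals, had 116.2 and 17.7, a ratio of 0.152 (0.145 to 0.160). Bambi, a decoy receptor of TGF-beta signals, had 1.45 and 0.710, a ratio of 0.491 (0.357 to 0.658). Ccnd1 and Myc, other common targets, did not reach 2-fold, with ratios of 0.982 (0.939 to 1.03) and 0.671 (0.574 to 0.777).

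**Figure D4:**
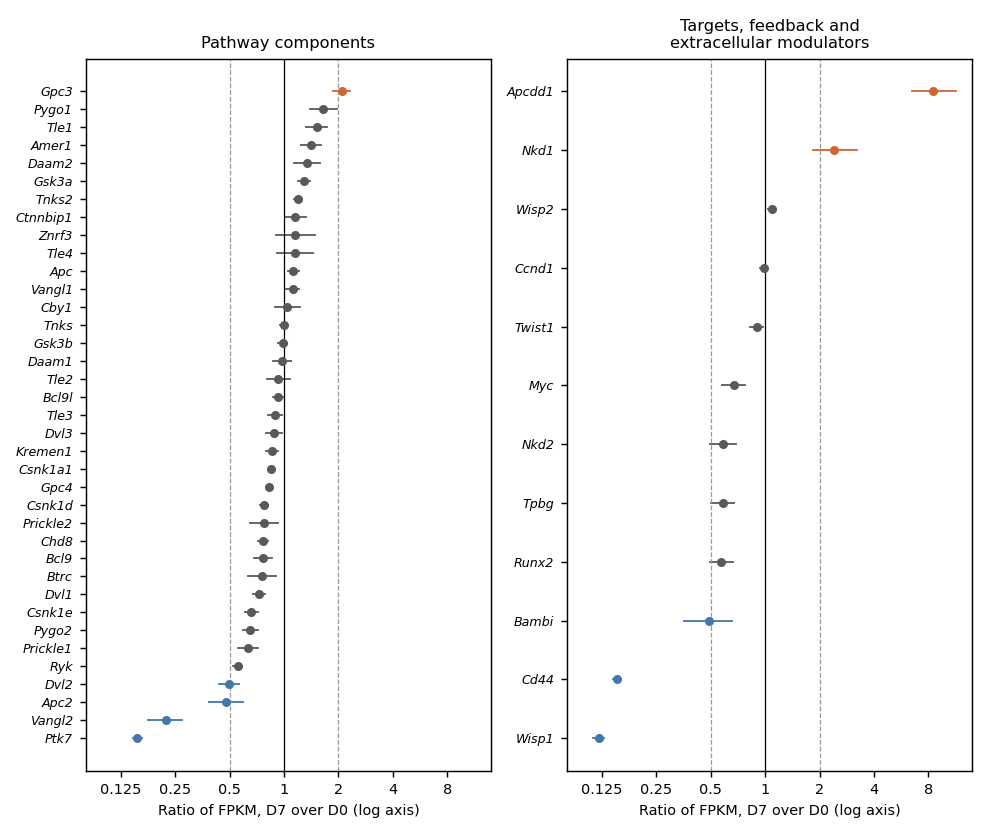
Ratio of FPKM at D7 to that at D0 (log axis, bars are 95% counting intervals) for the 37 pathway components (left) and 12 targets, feedback and extracellular modulators (right) with an FPKM of at least 1 in a library; dashed lines mark 0.5 and 2. Most components lie between the dashed lines, Ptk7 (0.155) and Vangl2 (0.221) lie far to the left, and the targets spread from Wisp1 (0.120) to Apcdd1 (8.49).

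These ratios take the deposited FPKM values without rescaling. A scaling that sets values under 0.01 to 0.01 and divides each library by the median of all its values shifts the log2 ratio of each member above 0 in both libraries by -0.35. It also gives a ratio to genes listed at 0 in a library. Under it 5 members were higher and 15 lower, so that 75% of the called members were lower instead of 50%. Over all genes that share was 57.5% instead of 41.7%. Among the 15 and 5 are Dkk1, Wnt3 and Wnt10a, lower, and Sfrp5 and Wif1, higher, which are called through the floor on 1 to 4 fragments. Wnt5a, Wnt2b, Frzb, Lgr5, Lef1 and Fzd9 then passed 2-fold, Wnt2, Rspo1 and Lgr6 no longer did, and the Frizzled sum turned to a ratio of 0.795. The ratios of Fzd3, Fzd5, Fzd8 and Wnt11 and those of the members with equal fragments turned from above to below 1. Those of Rspo3 and Rspo2 were 0.751 and 0.717 under this scaling, below their intervals without rescaling. The directions of Axin2, Fzd4, Sfrp2, Lrp5, Lrp6, Ror1, Ror2 and Wls were the same under each of the scalings tried. Of these, Lrp6 came closest to 1, with a ratio of 1.02 under the floor and library median.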

How the data were processed

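The mRNA of the preadipocyte stage (D0) and the adipocyte stage (D7) was sequenced, 1 library each. The authors removed reads with adaptors, unknown or low-quality bases and duplicates, used SOAP2 to align the rest to mm10 and to genes, removed rRNA reads, and deposited an FPKM for each gene in each library. The submitters' processing notes name Bowtie2 instead. The libraries were made with degradation of the second strand, but whether strand was used in counting is not given in the sources used here, so values of overlapping genes are uncertain. Of 27324 rows, 3963 were empty and left out.

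Members were matched by symbol, and all 59 were found in GENCODE M21 (GRCm38), which gave coordinates and transcript lengths. The members and the gene lists were chosen with earlier results of these data known. Ratios were computed without a pseudocount. Numbers of fragments were recovered from 600 single-exon genes (600 bp or longer) with ends in the table at most 500 bp from the annotated ones. With lengths shortened by 179 bp (D0) and 182 bp (D7), 100% of the 79 and 89 values worth 20 fragments or fewer lay within 0.1 of a whole number. Denominators came to 21471624 fragments at D0 and 18266051 at D7. In genes with several exons the numbers are approximate, and 20 of 28 member values worth 20 fragments or fewer lay within 0.1 of a whole number. Of 76 genes with ribosomal protein symbols, 2 (Rpl10l and Rpl3l) were listed at 0 in a library, so a value of 0 is given only as listed.

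Members with an FPKM of at least 1 in a library are named with their values and the others in groups. Of the pathway lists, genes are named at an FPKM of at least 1 and past 2-fold with an interval that excludes 1. Gsk3b, Apc, Znrf3, Rnf43, Ccnd1, Myc, Ndp, Notum, Tnfrsf19, Celsr2 and Wisp2 are named outside this rule. The choice among listed genes that did not reach 2-fold follows no rule. The 2 libraries allow no test between stages. Alternatives were pseudocounts, filters, scalings, thresholds, summed rows of one symbol and a minimum of 10 fragments. The demand that the interval exclude 1 was added after seeing the data. Scripts were tested on simulated data. Software was scipy 1.17.1, pandas 2.3.3, matplotlib 3.10.9 and numpy 2.4.6 under Python 3.11.15.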

Additional observations from a re-analysis of the deposited data

How the results depend on the processing

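Scaling by TPM, by upper quartiles, by a trimmed mean or by the median ratio, and summing rows with one symbol left the counts of called members at 6 higher and 6 lower. A pseudocount of 1 gave 2 higher and 2 lower of 59, beside 1533 and 1021 of all 23361 genes. Axin2, Fzd2, Fzd6, Wnt16, Wnt2, Wnt4, Lgr6 and Rspo1 no longer reached 2-fold. Among members with an FPKM of at least 1 it also gave 2 higher and 2 lower, through Wnt2, Fzd2, Fzd6 and Wnt16. A minimum FPKM of 0.1 in both libraries left 3 higher and 6 lower of 37, beside 2056 and 1638 of 13349 genes. A minimum of 1 left 2 higher and 4 lower of 29, beside 1268 and 1062 of 10773 genes. A threshold of 1.5-fold gave 13 higher and 13 lower of 47, beside 4148 and 3538 of all 14986 genes, and 9 and 10 among members with an FPKM of at least 1. A threshold of 4-fold gave 2 higher and 1 lower of 47, beside 1211 and 578 of all 14986 genes. Among members with an FPKM of at least 1 it gave 1 and 0. The floor of 0.01 with the library median gave 5 higher and 15 lower members of 59, beside 2836 and 3832 of all 23361 genes. Among members with an FPKM of at least 1 it gave 2 higher and 9 lower. Under these alternatives no share was computed over all genes with an FPKM of at least 1. The counts among such members therefore have no background to be read against.

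For the pathway lists, 6 genes were higher and 7 lower of 55, beside 2767 and 1980 of all 14986 genes. With a pseudocount of 0.1 it was 4 higher and 4 lower of 62, beside 2638 and 1788 of all 23361 genes. The counts for all genes under the next settings are given in the paragraph above. A pseudocount of 1 gave 2 higher and 4 lower of 62. A minimum FPKM of 0.1 left 3 and 7 of 51, and a minimum of 1 left 3 and 5 of 47. The counts were 8 higher and 15 lower of 55 at 1.5-fold, and 2 higher and 4 lower at 4-fold. With the floor and library median 3 were higher and 14 lower of 62, beside 2836 and 3832 of all 23361 genes. That setting gave ratios of summed FPKM of 0.498 for the ligands, 0.795 for the Frizzled receptors, 0.748 for the antagonists that bind Wnt and 1.27 for the Tcf and Lef factors. TPM gave 0.937 for the antagonists. Other settings kept these sums within their counting intervals. Of 376 single ratios under alternatives, 344 stayed within their interval, 32 did not, and in 0 did a called member change direction. Most of the 32 arose under the floor and library median, and the rest under a pseudocount of 1 or TPM. With the floor and library median, most member ratios left their interval, so the pooled count does not describe that setting. The 344 also include the summing of rows with one symbol, which left the member ratios as they were. No paired analysis was possible because each stage has 1 library. Depth limits the 10 members with 1 to 3 fragments at most and the 7 listed at 0 in both libraries, and the spread between cultures is unknown.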

Other observations

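A few genes of the pathway lists passed 2-fold at an FPKM below 1, and these were picked after their values were seen. Celsr2, a cadherin of planar cell polarity, had an FPKM of 0.0584 in D0 and 0.349 in D7, from about 13 and 66 fragments, a ratio of 5.97 (95% counting interval 3.26 to 11.8). Notum, a secreted enzyme that removes the lipid from Wnt proteins, rested on about 3 and 6 fragments (interval 0.502 to 14.5, which includes 1). Tnfrsf19, a Wnt target of the TNF receptor family, rested on about 3 and 7 (interval 0.626 to 16.4, which also includes 1). Wisp2, known from white preadipocytes, neither passed 2-fold nor lay below an FPKM of 1. It stood at an FPKM of 125.1 and 136.6, a ratio of 1.09 (1.04 to 1.14), beside the much lower ratio of its relative Wisp1.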
